A study of Mus musculus with 15 samples.

Results

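Gif, Bhlha15, Chia1, Lipf and Rab3d, 5 genes used to follow the maturation of gastric chief cells, were taken by their symbols from the 44788 gene symbols of a mouse stomach transcriptome series. Each symbol had 1 entry in the files. Lipf was listed at 0 in every library, and the remaining 4 reached the limit of 1 FPKM (fragments counted per kilobase of a gene's transcript, relative to all mapped fragments of the library) that was required for testing.

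RNA-Seq was carried out on whole stomachs of C57BL/6 mice at 15 timepoints, with 1 library per timepoint. The fetal stage had 7 timepoints, 1 for each embryonic day from E12.5 to E18.5. The suckling stage had 5, at days 1, 3 and 5 and weeks 1 and 2 after birth (D1, D3, D5, W1 and W2). The weaned stage had 3, at weeks 3, 6 and 8 (W3, W6 and W8). The labels give age and not feeding. The study places weaning at W3, so whether the animals of W3 were already weaned is not known. All animals were untreated and of the same strain. The study's reporting notes describe stomachs pooled from several embryos at the early ages, animals that were not sexed up to W2 and males afterwards, so sex and age cannot be told apart. The study's methods name liver as the source of the RNA, whereas its labels and the rest of its text name stomach. The labelled tissue was checked against its markers: Barx1, the transcription factor of stomach mesenchyme, was between 37.3 and 472 FPKM in all libraries, and Cldn18, the gastric claudin, had 7.46 FPKM at E12.5 and 220.1 at E18.5 and lay between 154 and 290.2 after birth. The libraries of E15.5, D1, D3 and W8 stood apart in markers of other tissues. D1 held the liver marker Alb (461 FPKM), and D3 and E15.5 held the pancreatic marker Ctrb1 (84.5 and 39.3 FPKM). W8 was almost free of the keratins of the squamous forestomach (Krt5 at 1.26 FPKM).

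Chief cells lie at the base of the glands of the gastric corpus and store digestive zymogens in large granules that are released on feeding. Mature chief cells arise late in development, and they are thought to derive from mucous neck cells. Bhlha15, also called Mist1, is a basic helix-loop-helix transcription factor of professional secretory cells that builds up the granule and secretory apparatus, and Rab3d is a small GTPase on secretory granules. Gif encodes gastric intrinsic factor, which binds cobalamin (vitamin B12) for uptake in the ileum and is made by chief cells in mice. Chia1 is an acidic chitinase that works at the pH of the stomach, and Lipf is gastric lipase, which starts fat digestion.

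The 4 measured genes formed 3 time courses. Rab3d and Bhlha15 had 10.6% and 1.29% of their highest level at E12.5 and had reached 88.4% and 75.0% by E18.5. Gif rose over most of the series and had 4.72% of its highest level at E18.5 and 51.2% at W2. Chia1 stayed at a near-constant low level up to D1, was at 1.06% of its highest level at W2 and then rose steeply, to 17.2% at W3 and 81.0% at W6. At D1, Rab3d had 91.5%, Bhlha15 82.0%, Gif 6.94% and Chia1 0.0633% of their highest FPKM. After median-ratio scaling, which takes the middle of all genes as the reference, the values at D1 were 71.7%, 54.6%, 4.63% and 0.0422%, so that the order was kept while Bhlha15 and Rab3d lay further below their highest level. All values come from whole tissue, in which fewer cells of a type and less RNA per cell cannot be told apart.

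**Figure D1:**
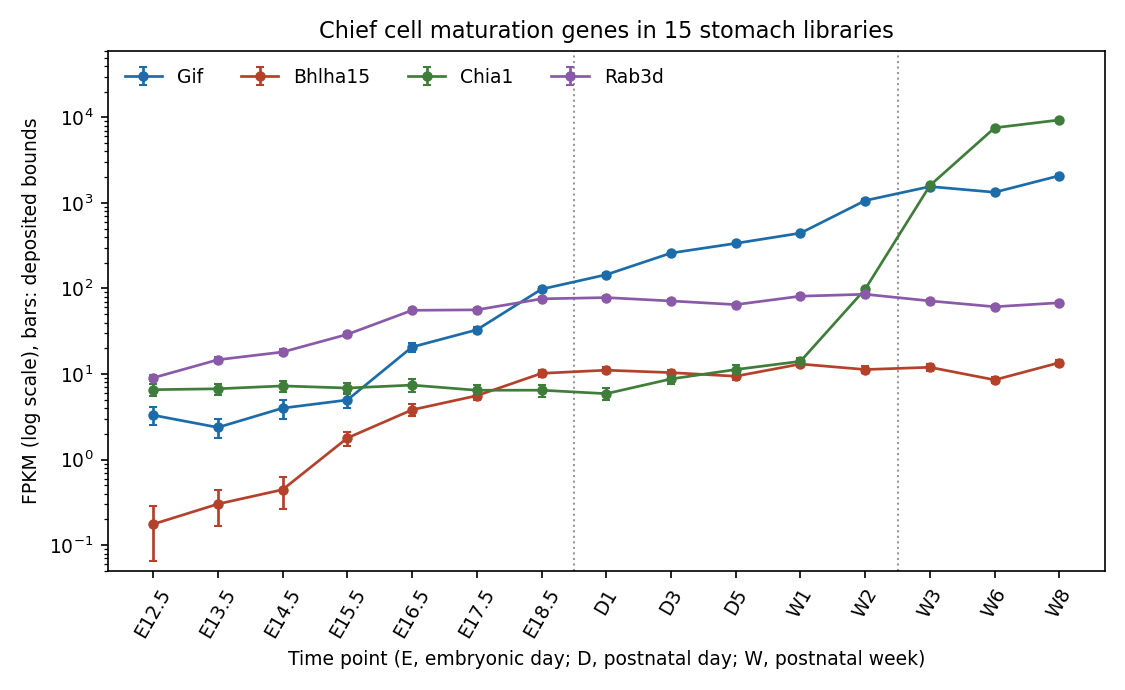
FPKM of Gif, Bhlha15, Chia1 and Rab3d on a log axis at the 15 timepoints, with 1 library per point, bars for the deposited lower and upper bounds and dotted lines at birth and weaning. In these unscaled values Rab3d lies between 61.2 and 85.6 FPKM and Bhlha15 between 8.55 and 13.6 from E18.5 on, Gif climbs from 20.7 FPKM at E16.5 to 2081 at W8, and Chia1 climbs from 14.1 FPKM at W1 to 9319 at W8. Lipf, listed at 0 in every library, is not drawn.

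The order in which the genes first reached 50% of their highest level was Rab3d at E16.5, Bhlha15 at E18.5, Gif at W2 and Chia1 at W6. With 10% as the limit it was Rab3d at E12.5, Bhlha15 at E15.5, Gif at D3 and Chia1 at W3. The libraries of E15.5 and D3 also held the pancreatic marker Ctrb1 (39.3 and 84.5 FPKM), and its bearing on these timepoints was not tested. E12.5 is the first timepoint, and Rab3d already had 10.6% there (6.64% after median-ratio scaling). When it first reached 10% in FPKM was therefore not observed. After median-ratio scaling the 50% limit was reached at E18.5, D1, W3 and W6, so the order of the 4 genes was the same in each of these 3 settings while the timepoints moved.

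**Figure D2:**
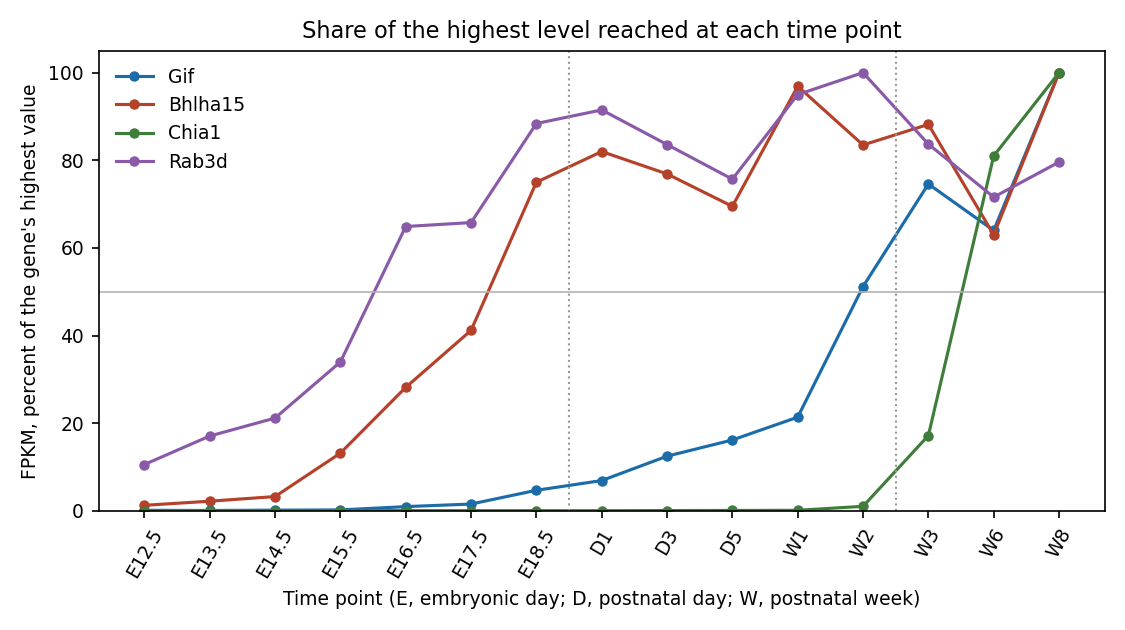
FPKM of the 4 measured genes as a percentage of each gene's highest value at the 15 timepoints, with 1 library per point, dotted lines at birth and weaning and a line at 50%. Rab3d passes 50% at E16.5, Bhlha15 at E18.5, Gif at W2 and Chia1 at W6.

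The sequences upstream of the 4 measured genes are shown because 1 of the genes, Bhlha15, encodes a factor of the class that binds E-boxes (CANNTG, a motif that reads the same on both strands). They come from RefSeq on GRCm38.p6, in which all 5 genes were found, Gif under its present symbol Cblif. A window of 250 bases before a RefSeq start was searched. For Gif, Bhlha15 and Rab3d this window runs into the gene's entry, and the stretch printed ends where that entry begins in the files or in RefSeq. Distances to the start are counted from the end of the full window and not from the end of the printed stretch. Capitals mark each E-box. The stretches lie at chr19:11747309-11747542 on the plus strand for Gif, chr5:144190036-144190187 on the plus strand for Bhlha15, chr3:106113132-106113381 on the plus strand for Chia1 and chr9:21918200-21918433 on the minus strand for Rab3d, each 5′ to 3′.
Gif: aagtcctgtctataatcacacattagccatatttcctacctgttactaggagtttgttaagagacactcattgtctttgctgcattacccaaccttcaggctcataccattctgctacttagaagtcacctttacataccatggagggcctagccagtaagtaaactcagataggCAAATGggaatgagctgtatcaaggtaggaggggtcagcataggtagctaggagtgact
Bhlha15: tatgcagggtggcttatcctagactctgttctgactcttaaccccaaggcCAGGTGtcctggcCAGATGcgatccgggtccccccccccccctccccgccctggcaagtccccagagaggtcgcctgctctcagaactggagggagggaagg
Chia1: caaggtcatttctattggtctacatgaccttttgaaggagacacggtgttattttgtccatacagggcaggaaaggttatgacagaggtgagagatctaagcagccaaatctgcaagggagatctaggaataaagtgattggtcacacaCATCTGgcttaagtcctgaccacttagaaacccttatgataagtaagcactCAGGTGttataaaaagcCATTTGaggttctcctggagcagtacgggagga
Rab3d: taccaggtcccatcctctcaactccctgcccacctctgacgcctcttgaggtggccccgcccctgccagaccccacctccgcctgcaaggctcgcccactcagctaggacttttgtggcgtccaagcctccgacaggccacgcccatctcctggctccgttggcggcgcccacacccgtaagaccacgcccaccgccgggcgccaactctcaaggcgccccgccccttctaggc

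The window of Gif held 1 E-box, CAAATG, 75 bases before the start. That of Bhlha15 held 3, of which 2 lie in the printed stretch, CAGGTG at 200 and CAGATG at 187 bases before the start, and the other CAGGTG lies 55 bases before it. That of Chia1 held 3, CATCTG at 101, CAGGTG at 50 and CATTTG at 33 bases. The window of Lipf held 4 and that of Rab3d held none. An E-box occurred in 66.2% of all 32817 RefSeq windows of this length, so its presence sets no gene of the list apart. CATATG and CAGCTG, versions of the motif searched by name, occurred in 3.47% and 13.0% of all windows and in none of the 5. The GC content of the windows was 69.2% for Rab3d, 66.8% for Bhlha15, 44.0% for Gif, 43.6% for Chia1 and 32.4% for Lipf. The median over all windows was 52.4%. Whether GC content goes with the time courses was not tested.

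Bhlha15 (chr5:144190188-144194441) was the lowest of the 4 measured genes at most timepoints. From E12.5 to E18.5 its FPKM was 0.176, 0.303, 0.446, 1.79, 3.82, 5.59 and 10.2. In the suckling stage it was 11.1 at D1, 10.4 at D3, 9.43 at D5, 13.1 at W1 and 11.3 at W2, and in the weaned stage 12 at W3, 8.55 at W6 and 13.6 at W8. The FPKM thus increased mainly between E14.5 and E18.5, and from E18.5 onwards it stayed between 8.55 and 13.6. After median-ratio scaling the level at E18.5 was 9.27, which was 46.3% of the highest value, and it reached 20 at W8, so that more of the increase fell after E18.5. E18.5 was 57.9-fold above E12.5, with a range of 32.4-fold to 168-fold from the deposited bounds, which cover counting error only. From E15.5 to E18.5 the bounds of each timepoint lay apart from those of the day before. Later they lay apart from the preceding timepoint at W1, W6 and W8, and W8 was 1.59-fold above W6 (1.35-fold to 1.87-fold from the bounds).

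Rab3d (chr9:21907491-21918198) had 9.03, 14.7, 18.1, 29.1, 55.6, 56.3 and 75.7 FPKM from E12.5 to E18.5. It had 78.3 at D1, 71.5 at D3, 64.8 at D5, 81.3 at W1 and 85.6 at W2, followed by 71.6 at W3, 61.2 at W6 and 68.1 at W8. The gene was already well above 1 FPKM at E12.5, was 8.38-fold higher at E18.5 and lay between 61.2 and 85.6 FPKM from then on. After median-ratio scaling it went on from 68.9 at E18.5 to 107 at W6. Its steepest step was the 1.91-fold increase from E15.5 to E16.5. The bounds of E16.5 and E17.5 overlapped. After E18.5 they lay apart from those of the preceding timepoint at D5, W1, W3, W6 and W8, with lower FPKM at D5, W3 and W6 and higher FPKM at W1 and W8.

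As a fold change, Bhlha15 therefore gained more than Rab3d from E12.5 to E18.5 (57.9-fold against 8.38-fold), starting from only 0.176 FPKM. In FPKM, Rab3d gained more, from 9.03 to 75.7 against 0.176 to 10.2. The ratio of Rab3d to Bhlha15 in FPKM fell from 51.4 at E12.5 to 7.43 at E18.5. After birth the ratio lay between 5.02 (W8) and 7.55 (W2). Over the 15 timepoints the 2 genes had the highest correlation among the measured members (Pearson's r of 0.97 on log2(FPKM + 1)), and that of Chia1 with Rab3d was the lowest at 0.33. Successive ages share a common trend, so these correlations describe the shapes of the courses.

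Gif (chr19:11747543-11763447) had 3.31, 2.38, 4.0, 4.98, 20.7, 32.9 and 98.2 FPKM from E12.5 to E18.5. It had 145 at D1, 259.6 at D3, 337 at D5, 444 at W1 and 1066 at W2. In the weaned stage it had 1553 at W3, 1332 at W6 and 2081 at W8. Gif thus changed little up to E15.5, increased 4.16-fold from E15.5 to E16.5 and rose at each further timepoint except W6, which was 0.857-fold of W3 in FPKM and 1.14-fold after median-ratio scaling. The step from W1 to W2 was 2.40-fold, and that from W2 to W3 was 1.46-fold. Of the 14 pairs of neighbours in the order of its levels, 11 had bounds that did not overlap, and the exceptions all lay within E12.5 to E15.5.

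Chia1 (chr3:106113382-106132118) had 6.57, 6.73, 7.27, 6.87, 7.43, 6.47 and 6.48 FPKM from E12.5 to E18.5. The suckling values were 5.90 at D1, 8.77 at D3, 11.3 at D5, 14.1 at W1 and 98.4 at W2, and the weaned values were 1599 at W3, 7548 at W6 and 9319 at W8. Up to D1 the gene held 6.71 ± 0.487 FPKM (SD, n = 8 timepoints). The rise began between D1 and W1, with a 2.40-fold difference, and continued with 6.97-fold from W1 to W2, 16.3-fold from W2 to W3 and 4.72-fold from W3 to W6. The difference between W6 and W8 was 1.23-fold, and 1.04-fold after median-ratio scaling. Relative to Gif, Chia1 had 0.0318 (W1) and 0.0923 (W2) of its FPKM, then 1.03 at W3, 5.67 at W6 and 4.48 at W8.

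The fetal values of Chia1 and the early fetal values of Gif lay near a level that other abundant stomach genes also held when they were lowest. The lowest value of Chia1, at D1, was 0.474% of its mean over the 15 libraries, and that of Gif, at E13.5, was 0.483%. Of 124 symbols with a mean of at least 1000 FPKM, 15, Chia1 itself included, had a lowest value under 1% of the mean, and none was below the 0.393% of Krt13. Among them, Pgc had 0.541%, Gkn2 0.525%, Tff2 0.513% and Cym 0.591%, although the lowest value of Cym fell at W8 and those of the others at E12.5. Whether reads carried over from other libraries contributed to these low values was not tested. Bhlha15 (2.36%) and Rab3d (16.1%) lay well above this level.

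**Figure D3:**
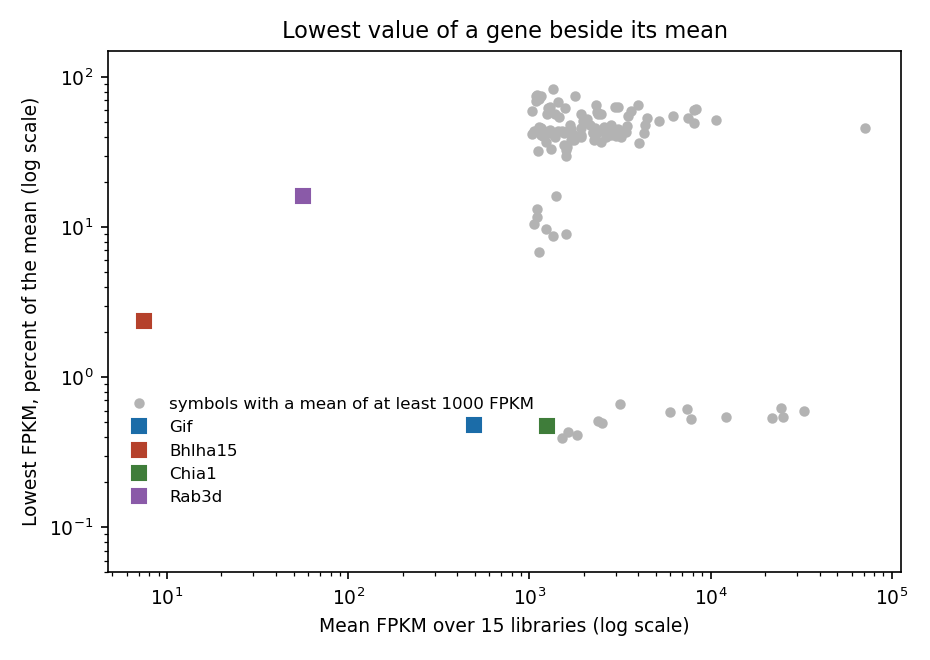
Lowest FPKM of a gene over the 15 libraries as a percentage of its mean, against that mean, both on log axes, for 124 symbols with a mean of at least 1000 FPKM (grey) and the 4 measured genes (squares). Gif at 0.483% and Chia1 at 0.474% lie in the band of 15 grey symbols under 1%, of which Chia1 is itself 1, and Bhlha15 at 2.36% and Rab3d at 16.1% lie above it.

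Lipf (chr19:33961248-33976813) was listed at 0 FPKM, with both bounds at 0, in all 15 libraries. Its relatives were listed with values above 0. Lipa, the lysosomal acid lipase, had 8.13 to 15.1 FPKM in all libraries. Lipk and Lipm, lipases of squamous epithelium, had their highest values at D1 (14.8 and 22.6 FPKM) and were at 0.359 and 0.0333 FPKM at W8, the library that was also almost free of the markers of the squamous forestomach. Lipn had at most 0.0858 FPKM in the fetal and 0.268 to 3.84 FPKM in the suckling libraries, and it met the limit of 1 FPKM for testing only through the stages after birth. Its difference is therefore given as values alone. The other 4 tested acid lipases were not called between neighbouring stages (limma adjusted p of 0.0255 or more).

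To compare the stages, limma was fitted to log2(FPKM + 1) of all 16902 symbols that reached 1 FPKM, with the timepoints of a stage in place of replicates. The spread within a stage therefore includes change with age, and p-values measure how far the timepoints of 2 stages lie apart. The timepoints are ordered ages, so a gene that rises steadily has no overlap between neighbouring stages. Its exact permutation p is then the smallest possible, wherever the stages are divided. Between the fetal and the suckling stage, Gif and Bhlha15 were higher at an adjusted p under 0.01, which is 2 of 4 tested members, where 10.8% of all tested genes were higher and 30.6% lower, or 41.4% in either direction. Gif rose from 23.8 ± 34.8 FPKM (SD, n = 7) to 450.2 ± 361 (SD, n = 5), and all suckling values lay above all fetal ones. Its difference was 4.93 on the log2 scale (SE 0.77, limma adjusted p = 0.000275), and the exact two-sided permutation test gave p = 0.00253, the smallest that 792 splits allow. Bhlha15 rose from 3.19 ± 3.69 FPKM (SD, n = 7) to 11.1 ± 1.37 (SD, n = 5), with 4 of 5 suckling values above all fetal ones. The difference was 2.0 on the log2 scale (SE 0.49, limma adjusted p = 0.00348), with an exact permutation p of 0.00505. It did not pass the threshold without W1 (limma adjusted p = 0.0102). Without D1 or without D3, Gif differed by 5.26 and 5.05, and Bhlha15 by 2.0 and 2.02, on the log2 scale, and all 4 values passed (limma adjusted p of 0.00775 or less).

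Rab3d had 36.9 ± 25.5 FPKM (SD, n = 7) in the fetal and 76.3 ± 8.21 (SD, n = 5) in the suckling stage, and the stages overlapped through E18.5. The log2 difference of 1.35 (SE 0.42) missed the threshold (limma adjusted p = 0.0137, exact permutation p = 0.00758), and it passed under median-ratio scaling (1.62, limma adjusted p = 0.00889) and without E18.5 (1.58, limma adjusted p = 0.00298). Chia1 had 6.83 ± 0.387 FPKM (SD, n = 7) and 27.7 ± 39.6 (SD, n = 5), with D1 below all fetal values in FPKM, though not after median-ratio scaling (5.80 against 5.18 at E12.5), and the other 4 above them. Its log2 difference of 1.08 (SE 0.55) missed the threshold (limma adjusted p = 0.105, exact permutation p = 0.0227). It rested largely on W2, without which it was 0.44 (limma adjusted p = 0.33), and it was 2.17 (limma adjusted p = 0.0317) with 0.5% of each gene's mean subtracted and 2.18 (limma adjusted p = 0.0652) with W3 in the suckling stage. The median difference over the 4 members was 1.68 on the log2 scale, and that over all tested genes was -0.22.

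Between the suckling and the weaned stage, Chia1 was the 1 tested member of 4 that was called, where 2.57% of all tested genes were higher and 28.9% lower, or 31.4% in either direction. It rose from 27.7 ± 39.6 (SD, n = 5) to 6156 ± 4044 FPKM (SD, n = 3) without overlap. The log2 difference of 8.19 (SE 0.69, limma adjusted p = 1.84e-05) had an exact permutation p of 0.0357, the smallest that 56 splits allow, and it ranged from 7.64 to 9.41 over 29 alternatives. Without W8 it was 7.71 (limma adjusted p = 0.000352), and without D1 it was 7.87 (limma adjusted p = 6.93e-05). Gif was higher in all 3 weaned libraries than in every suckling one, at 1655 ± 385 FPKM (SD, n = 3), but the log2 difference of 2.17 (SE 0.96) missed the threshold (limma adjusted p = 0.0701, exact permutation p = 0.0357).

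Bhlha15, with 11.4 ± 2.57 FPKM (SD, n = 3) in the weaned stage, differed from the suckling stage by 0.02 on the log2 scale (SE 0.61, limma adjusted p = 0.988), and by 0.57 after median-ratio scaling. Rab3d, with 67.0 ± 5.27 FPKM (SD, n = 3), differed by -0.18 (SE 0.53, limma adjusted p = 0.786), and by 0.40 after median-ratio scaling, so that its direction depended on the scaling. In each setting neither gene was called. The median of all tested genes was -0.42 in this comparison and -0.00 after median-ratio scaling, and the 10 highest genes of a library took between 11.2% (E14.5) and 53.2% (W6) of its FPKM. Median-ratio scaling gave 2152 higher and 1305 lower genes in place of 435 and 4877, and 2888 and 2515 in place of 1820 and 5170 between the fetal and the suckling stage.

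**Figure D4:**
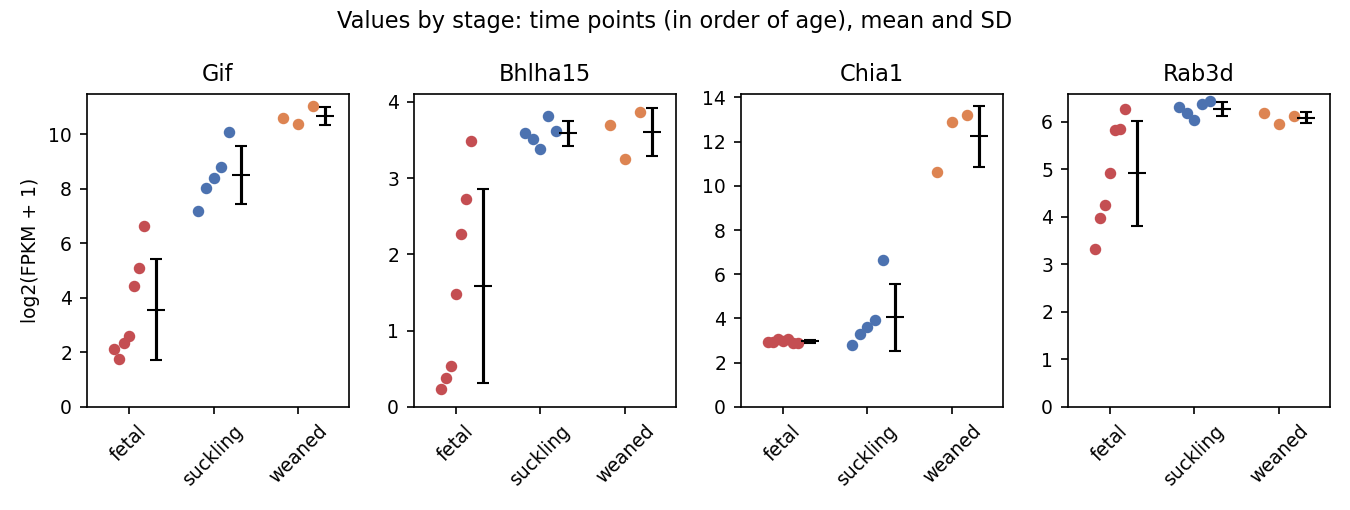
Values of log2(FPKM + 1) by stage for the 4 measured genes, with 7 fetal, 5 suckling and 3 weaned timepoints in order of age as points and the mean with SD beside them. Gif has no overlap between neighbouring stages, Chia1 none between suckling and weaned, and the suckling and weaned values of Bhlha15 and Rab3d overlap.

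The zymogens, the main granule cargo of chief cells, divided into those of the suckling and those of the weaned stomach. Cym, the milk-clotting protease prochymosin, rose from 323 FPKM at E12.5 to 35716 at E18.5 and 117136 at W1, and had 194 at W8. Pga5, a pepsinogen A, had 27728 FPKM at W1 and 151 at W8. Pgc, progastricsin, had 1847 FPKM at W1, 10781 at W2, 86122 at W3 and 151321 at W8. All 3 were higher in the suckling than in the fetal stage, where 10.8% of all tested genes were higher. Between suckling and weaned Pgc rose by 5.66 on the log2 scale (limma adjusted p = 8.43e-05). Cym fell by 6.70 (limma adjusted p = 0.00217) and Pga5 by 5.84 (limma adjusted p = 0.00852).

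Gif rose while Cym and Pga5 were at their highest and stayed high after they had fallen. In FPKM it was 24.1% of Pgc at W1, 9.89% at W2 and between 1.09% and 1.80% from W3 on. Chia1 was 0.486% of Pgc at D1, 0.913% at W2, 1.86% at W3 and 6.16% at both W6 and W8.

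**Figure D5:**
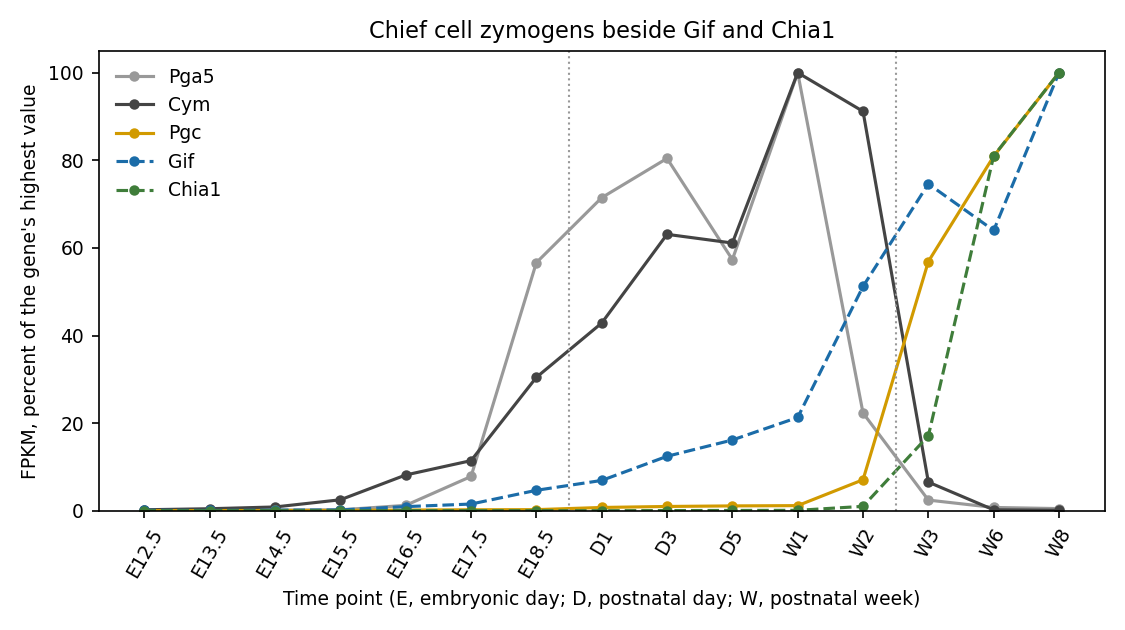
FPKM as a percentage of each gene's highest value at the 15 timepoints for the zymogens Pga5, Cym and Pgc (solid) and for Gif and Chia1 (dashed), with dotted lines at birth and weaning. Cym and Pga5 are highest at W1, Gif has 51.2% at W2, and Chia1 has 17.2% at W3 and 81.0% at W6.

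Of 7 genes known to be linked to Bhlha15 in secretory cells, a list that includes the member Rab3d, 6 were tested. Of these, 3 were higher in the suckling than in the fetal stage, with a median of 1.04 that takes in Rab3d. Over all tested genes, 10.8% were higher and 41.4% were called in either direction. Tmed6, a cargo receptor of the early secretory pathway, rose from 1.82 FPKM at E12.5 to 45.2 at W1 and 252 at W8, and was higher in both comparisons, by 2.27 (limma adjusted p = 0.00123) and 2.43 (limma adjusted p = 0.00399) on the log2 scale. Gjb1, the gap junction protein connexin 32, rose by 3.45 (limma adjusted p = 0.00046) from the fetal to the suckling stage, with 0.757 FPKM at E13.5 and 146 at W6. Ccpg1, an endoplasmic reticulum autophagy receptor, rose by 0.72 (limma adjusted p = 0.0013). Copz2 and Atp2c2 were not called in either comparison, and Rab26, a granule GTPase that Bhlha15 is known to regulate, stayed between 0.0454 and 0.872 FPKM and was not tested.

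Of 10 transcription factors of secretory cells, 4 were higher in the suckling stage and none was lower, where 41.4% of all tested genes were called in either direction. Xbp1, the factor of the unfolded protein response that is known to act upstream of Bhlha15, went from 55.9 FPKM at E12.5 to 99.3 at E18.5 and 181 at W8 and rose by 0.74 (limma adjusted p = 0.00171). Creb3l4 rose by 1.27 (limma adjusted p = 0.00198), Spdef, a factor of mucous cells, by 1.12 (limma adjusted p = 0.00867) and Klf4 by 1.38 (limma adjusted p = 0.00968). Foxq1, with 189 FPKM at W2 the highest of the list, differed by 1.48 and was not called (limma adjusted p = 0.0116). Creb3l2 was the 1 factor called between suckling and weaned, and it fell by 1.01 (limma adjusted p = 0.00371). The medians over the list were 0.74 and -0.02.

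Rab3d was the most abundant of the 4 Rab3 genes from E13.5 onwards, with FPKM compared per length of transcript. Its share of their summed FPKM was 40.8% at E12.5 and 84.3% at E18.5 and lay between 80.9% and 84.1% after birth. Rab3a, the Rab3 gene of neurons and endocrine cells, had 10 to 14 FPKM throughout, and Rab3b and Rab3c had at most 2.04 and 1.84 FPKM. None of the 4 was called in either comparison, where 41.4% and 31.4% of all tested genes were called in either direction.

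Of 13 tested genes of regulated exocytosis other than Rab3, 3 were higher and 1 was lower in the suckling stage, a smaller share than the 41.4% called over all tested genes. Sytl2 and Sytl4, which tether granules through Rab27, rose by 1.78 (limma adjusted p = 0.00235) and 0.79 (limma adjusted p = 0.00199), and Stxbp2, a syntaxin-binding protein, by 0.75 (limma adjusted p = 0.00182), whereas Snap23, a SNARE protein, fell by 0.44 (limma adjusted p = 0.0021). Vamp2 fell by 0.71 in the weaned stage (limma adjusted p = 0.00247). Vamp8 and Sytl1, highest at D1 with 274 and 80.9 FPKM, were not called in either comparison (limma adjusted p of 0.0506 or more). Rab27b, which like Rab3d lies on secretory granules, went from 1.17 FPKM at E12.5 to 15.8 at E18.5 and 27.1 at W8, and was not called in either comparison (1.39 with limma adjusted p = 0.017, and 0.66 with limma adjusted p = 0.335). The medians over the list were 0.58 and 0.19.

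The chitinase family held 6 tested genes. Chit1, the other active mouse chitinase, had at most 0.41 FPKM up to E15.5, 31.2 FPKM at D1 and 28.4 at W2, and 0.896 at W8. It was higher in the suckling than in the fetal stage by 3.13 on the log2 scale (limma adjusted p = 0.00464), and its difference of -1.97 to the weaned stage was not called (limma adjusted p = 0.111). Chil4, a chitinase-like protein without enzyme activity, had 11.6 FPKM at W2, 279 at W3, 49.1 at W6 and 0.205 at W8, around the ages at which Chia1 rose, and was not called (limma adjusted p = 0.0234). Chil1, which met the limit for testing only through the stages after birth, had at most 0.279 FPKM in the fetal and 0.521 to 1.43 in the suckling libraries. Ctbs, a lysosomal chitobiase, fell by 0.70 in the weaned stage (limma adjusted p = 0.00104).

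Of the 13 genes of cobalamin uptake and use, 10 were tested. In the suckling stage 2 were higher, 2 were lower and 6 were not called, and in the weaned stage 2 were higher and 8 were not called. Over all tested genes, 41.4% and 31.4% were called in either direction in these comparisons. Gif and Tcn2, the plasma carrier transcobalamin, were higher in the suckling stage, with Tcn2 rising by 0.93 (limma adjusted p = 0.000696) from 15.4 FPKM at E12.5 to 57.7 at W8. Mtr, methionine synthase, fell by 0.91 (limma adjusted p = 0.00318) and Mmab by 0.47 (limma adjusted p = 0.00482). In the weaned stage Cd320, the transcobalamin receptor, rose by 0.63 (limma adjusted p = 0.00901) and Mut, the mutase that uses cobalamin, by 0.72 (limma adjusted p = 0.00412). Cubn and Amn, which form the ileal receptor for the complex of intrinsic factor and cobalamin, stayed below 1 FPKM in all 15 libraries.

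For each measured gene, the 3 genes of most similar course were those with the highest Pearson's r of log2(FPKM + 1) over the 15 timepoints, among 9857 genes that reached 10 FPKM. For Gif these were Cdk18 (r = 0.996), Gjb1 (r = 0.995) and Tmem8 (r = 0.994). For Bhlha15 they were Zc3hav1 (r = 0.99), Smpd3 (r = 0.986) and Itfg3 (r = 0.984), and for Rab3d they were Bmp2 (r = 0.989), Smpd3 (r = 0.988) and Myo1a (r = 0.986). For Chia1 they were Ces1f (r = 0.984), 9130204L05Rik (r = 0.983) and Hamp2 (r = 0.981), and Hamp2 went from 125 FPKM at W3 to 477 at W6. Smpd3 stood among the 3 nearest genes of both Bhlha15 and Rab3d.

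Bhlha15 and Rab3d are also expressed in other secretory cells, so markers of those were read beside them. The 13 pancreatic acinar markers summed to 7.96 to 63.7 FPKM in the fetal libraries, 25.0 to 187 in the suckling and 87.4 to 117 in the weaned ones. Of the 12 tested, 1 was higher in each comparison, where 10.8% and 2.57% of all tested genes were higher. The highest sum was at D3, where Ctrb1 had 84.5 FPKM, and there Bhlha15 had 10.4 FPKM and Rab3d 71.5, each below its values at D1 and W1. Cela1, elastase 1, which was higher in the weaned stage by 2.19 (limma adjusted p = 0.00708), made up 72.4 FPKM of the sum of 87.4 at W3. The 8 plasma cell markers summed to 58.1 to 113 FPKM in the fetal, 114 to 136 in the suckling and 73.1 to 79.3 in the weaned libraries. Most of this was Sdc1, a syndecan that epithelium also expresses, with 47.0 to 113 FPKM, and Prdm1 had at most 3.62 FPKM. The defining markers Igj, Mzb1 and Tnfrsf17, stayed at or below 0.759 FPKM in all libraries. Derl3, a listed marker that also serves protein degradation in other secretory cells, rose by 3.58 from the fetal to the suckling stage (limma adjusted p = 0.000103). Mast cell markers summed to 3.96 to 18.8, 24.0 to 39.7 and 18.3 to 88.6 FPKM in the 3 stages. Of the 6 tested, 4 were higher in the suckling stage, where 10.8% of all tested genes were higher. The part of these cells in the values of Bhlha15 and Rab3d was not tested further.

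Other cells of the gastric glands changed along with the chief cell genes. Of 7 parietal cell markers, 6 were higher in the suckling than in the fetal stage, where 10.8% of all tested genes were higher. None was called in the weaned stage, where 31.4% of all tested genes were called in either direction. Atp4a, the proton pump, had 216 FPKM at E18.5, 1149 at W2 and 3289 at W8. All 3 mucous neck cell markers were higher in the suckling stage, with Tff2 at 12.3 FPKM at E12.5. Of 4 surface mucous cell markers, 3 were higher in each comparison, where 10.8% and 2.57% of all tested genes were higher. The 6 forestomach markers summed to between 1128 and 11997 FPKM from E15.5 to W6 and to 16.7 at W8. At W8, Gif was 1.56-fold and Bhlha15 1.59-fold above W6 in FPKM, and 1.31-fold and 1.34-fold after median-ratio scaling. The part of the missing forestomach in these differences was not tested. Alb, the defining liver marker, had 461 FPKM at D1 and at most 65.4 in any other library. At D1, Chia1 had its lowest value (5.90), and Gif, Bhlha15 and Rab3d lay between their values at E18.5 and W1.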

How the data were processed

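The labels give 1 stomach library per timepoint. Each of the deposited tables holds, for 1 library, the FPKM of a gene entry and a lower and an upper bound. The authors' methods name HISAT2, StringTie and a GENCODE annotation, the submitters' processing notes name Bowtie 0.12.2, FastQC and GRCm38.p2, and the files have the layout of Cufflinks. FPKM is relative to the library total, so a few very abundant genes lower all others. Read depth is not given in the files; relative depth, estimated from entries that look like 1 fragment, was 0.702 (E16.5) to 1.17 (W6) of that at E12.5. Bounds cover counting error only.

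Where a symbol had several entries, their FPKM were added. Symbols with a highest FPKM of at least 1 (16902) were tested on log2(FPKM + 1), which understates changes of low genes, with limma 3.58.1 in R 4.3.3 in 1 fit with 3 stages, with Benjamini-Hochberg adjustment and a threshold of 0.01. Stages follow birth and weaning as read from the ages, because the study's phases were drawn from the same transcriptomes. The phases were an alternative. Single genes were compared by exact two-sided permutation tests. The fit was tested on simulated data. SciPy 1.17.1 in Python 3.11.15 was used for the rest.

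The genes named are the members, the 3 nearest courses of each, and from the lists all genes of short lists, otherwise the 3 highest and those called; lists of other cells and of stomach identity are described by examples only. Rab26, Rab27b, Copz2, Atp2c2, Cldn18, Cubn, Amn, Igj, Mzb1, Tnfrsf17 and Prdm1 fall outside that rule and were picked after their values were seen. Members and lists were chosen with earlier results of these data known. Labels do not say whether timepoints are separate litters.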

Additional observations from a re-analysis of the deposited data

How the results depend on the processing

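The calls of Gif and Chia1 were the same in all 29 alternatives, with log2 differences of 4.36 to 5.64 for Gif between fetal and suckling and 7.64 to 9.41 for Chia1 between suckling and weaned. Rab3d between fetal and suckling passed the threshold under median-ratio scaling (1.62), quantile normalization (1.52), an adjusted p under 0.05 (1.35), the study's RNA phases (1.58) and W3 counted with the suckling stage (1.34). Leaving out 1 timepoint gave Rab3d 1.09 to 1.58, called without E16.5, E17.5 or E18.5 (limma adjusted p = 0.00885, 0.00758 and 0.00298), and Bhlha15 1.78 to 2.32, lost without W1 (limma adjusted p = 0.0102), so that 1 to 3 members were called. Subtracting 0.5% of each gene's mean, an alternative added after the values had been seen, changed no call of the members.

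The number of genes called in all moved more. Between fetal and suckling, 2888 were higher and 2515 lower under median-ratio scaling, 3250 lower with a fixed sum without the 10 highest genes, and 2865 higher at an adjusted p under 0.05. Between suckling and weaned, 2152 were higher and 1305 lower under median-ratio scaling, 1411 and 925 under quantile normalization, 829 and 7891 at an adjusted p under 0.05, and 132 and 2436 with W3 in the suckling stage, and 3186 were lower with the fixed sum. Leaving out 1 timepoint gave 169 to 573 higher and 1359 to 5660 lower, with 169 and 1359 without W6 and 273 and 3014 without W8. The causes were not tested. The number (1 to 15) of the first timepoint at the limit moved with a 10% limit to 9 (D3) for Gif, 4 (E15.5) for Bhlha15, 13 (W3) for Chia1 and 1 (E12.5) for Rab3d, and under median-ratio scaling to 13 for Gif, 8 (D1) for Bhlha15 and 7 (E18.5) for Rab3d. No paired analysis was possible because the labels give 1 library per timepoint and no replicate numbers that groups share. With 1 library per timepoint, differences between animals of 1 age could not be measured.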
